A study of Homo sapiens with 3 samples.

Results

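The mitochondrial genome (chrM) is a small circle whose strands are both transcribed. The ends described here lie on the minus strand of chrM, the strand of RNA read from its light-strand promoter. Plus-strand ends of the control region, the stretch without protein genes that holds the promoters and the start of DNA replication, are also described. Members were chosen by position alone: every minus-strand position of chrM with counts, and the plus-strand positions from 1 to 600 and from 16001 to 16571. Of 1730926 positions with counts in any library, 17531 lay on chrM and 8057 were members, 7189 on the minus strand and 868 on the plus strand. The libraries held 6245 of them (4sU 30 min), 5437 (4sU 60 min) and 6246 (input).

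The study sequenced the poly(A) ends of RNA in the established human cell line HEK293T, which derives from embryonic kidney. The method, 2P-seq, places the last base of an RNA before its poly(A) tail. Priming inside A-rich stretches of RNA, which would also be read as an end, was not examined here. In 4sU-2P-seq the RNA was first captured through 4-thiouridine (4sU), a nucleoside analogue that cells put into RNA while they make it, so captured RNA is enriched for new molecules. Each of 3 groups had 1 library: RNA captured after 30 min in 4sU, RNA captured after 60 min, and the uncaptured input of the 30 min labelling, which the series design calls steady-state. The captured libraries also omitted the first poly(A) selection, so in ratios to input the capture and this step cannot be told apart. The labels give the 4sU concentration as 1000 mM for the labelled cells, a value whose unit may be an error and could not be checked here, and name no treatment for the input in its own field, while the input's title refers to the shorter labelling. With 1 library a group no difference has a replicate check, no p-value is given, and every interval is a 95% interval for counting error only. The markers of the cell line were not checked, because positions outside chrM were not assigned to genes.

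Heavy-strand transcription gives the ribosomal RNAs, most tRNAs and nearly all mitochondrial mRNAs. Light-strand transcription starts in the control region, runs towards lower positions, crosses the origin of the numbering, and gives ND6, a subunit of respiratory complex I, and several tRNAs; the rest of its product lies opposite heavy-strand genes and is known to be cleared by the mitochondrial degradosome. Much light-strand transcription is known to stop early in the control region, near conserved sequence blocks, where it gives the short polyadenylated 7S RNA and the primers of heavy-strand DNA replication. tRNAs punctuate the long transcripts, and RNase P cuts at their 5′ ends.

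The largest chrM position with counts was 16571, the chrM length of hg19, and positions follow the deposited tables; no source used here states their build. Genes were named from a RefSeq table of GRCh38.p14, used for names only, where an end lay within 10 nt of a gene boundary or more than 10 nt inside a gene. All 8 plus-strand ends outside the control region holding 1% or more of any library's chrM counts lay at such a boundary, among them those of RNR2, ND2, COX3, ND4 and CYTB, so the strand in the tables was read as that of the RNA. The tables held 14159691 counts (4sU 30 min), 8926568 (4sU 60 min) and 35410931 (input), of which 31.8%, 31.1% and 7.46% lay on chrM. Some stretches of chrM had no count on either strand in any library; the longest ran from 5538 to 5782, and others from 4497 to 4698 and from 1060 to 1248.

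Members held 810805 counts at 30 min, 514632 at 60 min and 1262900 for the input. Of chrM counts, this was 18.0% at 30 min (95% Wilson interval 17.952 to 18.023), 18.5% at 60 min (18.5 to 18.6) and 47.8% for the input (47.7 to 47.9). Plus-strand ends outside the control region made up the rest, 82.0% at 30 min, 81.5% at 60 min and 52.2% in input.

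Whether captured RNA held more or less of the members depended on the denominator. In counts per 1000000 counts of the library (CPM), the minus strand stood at 50288 at 30 min, 47247 at 60 min and 33217 for the input, 1.51 times the input at 30 min (1.51 to 1.52) and 1.42 times at 60 min (1.42 to 1.43). As a share of chrM counts, the same ends were 0.355 times the input at 30 min (0.354 to 0.356) and 0.341 times at 60 min (0.340 to 0.343). The plus strand outside the control region rose 6.70-fold at 30 min and 6.50-fold at 60 min in CPM. The light-strand ends thus rose less than the heavy-strand ends in both captured libraries, and all further ratios are of CPM unless another scale is named. All of chrM rose 4.27-fold at 30 min and 4.17-fold at 60 min in CPM, so any ratio to input below those values is a fall as a share of chrM counts.

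One zone carried most of the light-strand ends. Positions 197 to 245 on the minus strand, within 24 nt of the most abundant position 221, held 534461 counts at 30 min, 283676 at 60 min and 1034491 for the input. These were 75.1% of minus-strand counts at 30 min, 67.3% at 60 min and 87.9% for the input. Its level differed less between libraries than that of the remaining minus strand, with 37745 CPM at 30 min, 31779 CPM at 60 min and 29214 CPM in input. The ratio to input was 1.29 at 30 min (1.29 to 1.30) and 1.09 at 60 min (1.08 to 1.09), and 60 min stood at 0.842 times 30 min (0.838 to 0.846). Without this zone the minus strand was 3.13 times the input at 30 min (3.11 to 3.16) and 3.86 times at 60 min (3.84 to 3.89), and its share of chrM counts was 3.94% at 30 min, 4.98% at 60 min and 5.36% in input.

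The ends within the zone formed a comb of positions, not a single end. In input, position 221 took 16.2% of the counts of the zone, 219 took 10.5%, 218 took 6.21%, 237 took 5.99%, 214 took 5.32% and 210 took 5.02%. Captured RNA held more of its ends at the centre of the comb, though not at position 221 at 30 min. That position took 15.5% of the zone at 30 min and 18.0% at 60 min. Position 219 held 17.4% of the zone at 30 min and 17.2% at 60 min, and it was 2.14 times the input in CPM at 30 min and 1.79 times at 60 min. The 4 positions from 218 to 221 together held 46.8% of the zone at 30 min (46.6 to 46.9), 49.5% at 60 min (49.3 to 49.7) and 36.9% in input (36.8 to 37.0). The ends before the centre, from 222 to 245, held 35.8%, 33.1% and 42.6% in that order, and the ends after it, from 197 to 217, held 17.5%, 17.4% and 20.5%.

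Most positions of the zone had fewer CPM at 60 than at 30 min, at the centre as well as on both sides. At the centre, position 219 stood at 0.835 times its 30 min level and position 221 at 0.976 times. Before the centre, position 234 stood at 0.897 times the input at 30 min and 0.599 times at 60 min, and position 237 stood at 0.997 and 0.662 times. Past the centre, position 206 stood at 1.65 and 1.15 times. Positions 225 and 200 were at 1.01 and 1.03 times their 30 min level. Counts at 5 positions made up 50% of the zone in each captured library, against 7 positions in input. The reverse transcription primer was anchored, so an end whose last base is A cannot be placed apart from the base before it; the gaps of the comb were not compared with the sequence, which was not used here.

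**Figure D1:**
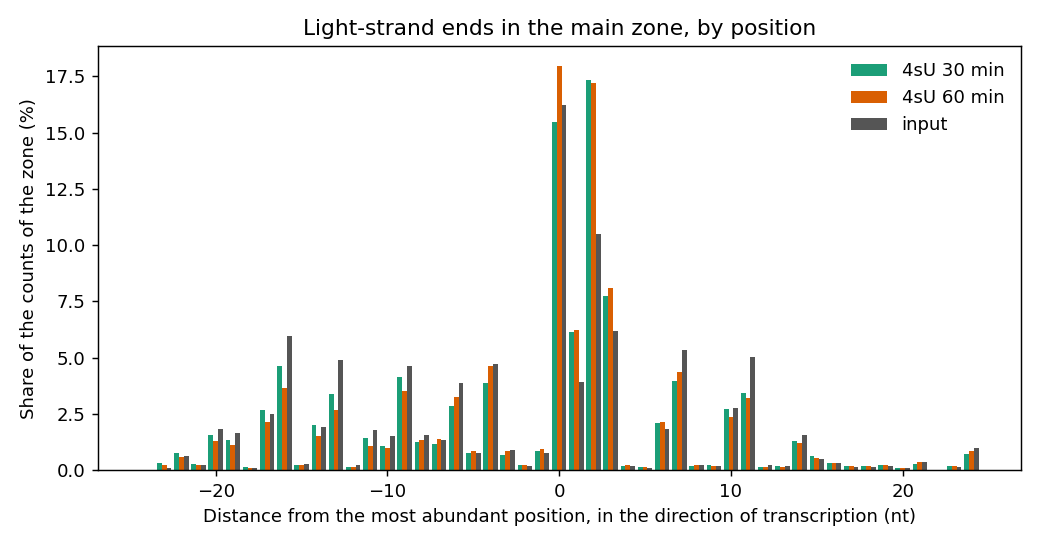
Share of the counts of the main light-strand zone (%, vertical axis) at each position, by distance in nt from the most abundant position in the direction of light-strand transcription; bars stand for the 1 library of each group. The bar 2 nt past the most abundant position reaches 17.4% and 17.2% in the captured libraries and 10.5% in input, and the input bars are the tallest at many of the outer positions, such as 13 and 16 nt before and 11 nt past it.

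Between position 600 and the main zone, the first part of the light-strand path, ends were few, with 168 CPM at 30 min, 283 CPM at 60 min and 248 CPM in input. From 401 to 600 no window of 50 nt held more than 3 minus-strand counts in a library, and the first position with at least 10 counts was 359 at 30 min, 360 at 60 min and 361 in input. The light-strand promoter is known to lie in this part of the control region. Here ends were grouped into sites, each made of the positions within 24 nt of a local maximum. The site at 284 had 487 counts at 30 min, 381 at 60 min and 3499 for the input. It had the lowest ratio to input of the member sites compared, at 0.348 times the input at 30 min (0.316 to 0.383) and 0.432 times at 60 min (0.388 to 0.480). The site at 247, next to the main zone, stood at 1.03 times the input at 30 min (0.964 to 1.09), an interval that includes 1. At 60 min it stood at 0.830 times the input (0.765 to 0.899).

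The sites nearest the start moved between labelling times. The site at 318 had 264 counts at 30 min, 896 at 60 min and 1132 for the input, or 18.6, 100.4 and 32.0 CPM. The site at 356 had 183, 513 and 651 counts, or 12.9, 57.5 and 18.4 CPM. At 30 min both lay below the input, at 0.583 times (0.508 to 0.667) and 0.703 times (0.593 to 0.830). At 60 min both lay above it, at 3.14 times (2.87 to 3.43) and 3.13 times (2.78 to 3.52). They were 5.38 and 4.45 times as high at 60 min as at 30 min. These ends lie close to the start of the transcript, and the protocol kept cDNA of 150 to 500 nt; the part of size selection in their counts was not tested.

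Past the main zone, ends split into a group at the level of the input and a group well above it. The site at 189 had 11886, 6494 and 27832 counts in the same order of libraries as above, and stood at 1.07 times the input at 30 min (1.05 to 1.09) and 0.926 times at 60 min (0.901 to 0.951). The site at 156 stood at 1.17 (1.11 to 1.22) and 0.775 times (0.728 to 0.825), and the site at 123 at 1.02 (0.929 to 1.11) and 0.846 times (0.752 to 0.949). These sites lay within 1.17 times the input at 30 min and below it at 60 min. From position 104 downwards the picture changed. The site at 80 had 35245 counts at 30 min, 23064 at 60 min and 29271 for the input, or 3.01 times (2.97 to 3.06) and 3.13 times the input (3.07 to 3.18). The site at 53 reached 4.21 times (4.06 to 4.37) and 5.83 times (5.61 to 6.06), and the site at 24 reached 3.44 (3.24 to 3.65) and 3.66 times (3.43 to 3.91).

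Beyond the origin of the numbering the summed rise was larger, and 1 site, at 16027, carried much of it. The minus strand from 16571 down to 16001 held 71244 counts at 30 min, 57246 at 60 min and 23176 for the input, 7.69 times the input at 30 min (7.57 to 7.80) and 9.80 times at 60 min (9.65 to 9.95). As a share of chrM counts it rose too, from 0.877% in input to 1.58% and 2.06%. Without the site at 16027 the ratios were 4.90 at 30 min (4.81 to 4.99) and 5.62 at 60 min (5.51 to 5.73), and 1.15 and 1.35 as a share of chrM counts. The site at 16478 was 6.79 times (6.56 to 7.03) and 8.56 times the input (8.26 to 8.87), and the site at 16430 was 5.59 (5.39 to 5.81) and 7.42 times (7.14 to 7.71). The sites at 16512 and 16362 lay lower, at 3.73 and 3.93 times at 30 min and 2.99 and 3.85 times at 60 min. Lower still were the sites at 16328 (3.48 and 2.65 times), 16131 (2.36 times at both labelling times) and 16301 (2.29 and 1.61 times), so single sites beyond the origin lay on both sides of the site at 53.

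The last site of this path stood apart from the others. At 16027, at the 5′ boundary of TRNP, the gene of tRNA-Pro, there were 37880 counts at 30 min, 33128 at 60 min and 6155 for the input. That was 2675, 3711 and 174 CPM, or 15.4 times the input at 30 min (15.0 to 15.8) and 21.4 times at 60 min (20.8 to 21.9). This was the highest ratio to input among the 72 minus-strand sites compared at 30 min. At 60 min the site at 14305 stood at 22.1 times the input (16.9 to 29.1), with 66 input counts. The site at 16027 also rose as a share of chrM counts, from 0.233% in input to 0.840% and 1.19%. The site was also sharp: the standard deviation of positions was 1.77 nt at 30 min, 1.61 nt at 60 min and 2.72 nt in input, against 8.98, 8.53 and 9.51 nt in the main zone. Position 16027 took 67.7% of the site at 30 min and 66.0% at 60 min, while in input the top position was 16026, with 44.9%.

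Read in order along the path, a larger share of captured ends lay far from the promoter. Of the ends at the main zone or beyond it within the control region, the zone held 80.2% at 30 min (80.1 to 80.3), 74.6% at 60 min (74.4 to 74.7) and 91.6% in input (91.6 to 91.7). Of those beyond the zone, 46.1%, 40.8% and 75.5% lay before the origin. Of those beyond the origin, 46.8%, 42.1% and 73.4% lay before the site at TRNP. At each of these stages the 60 min library had the smallest share of ends at the earlier places and the input the largest. These are shares of polyadenylated ends, not of all molecules, and ends outside the control region were not counted in them.

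**Figure D2:**
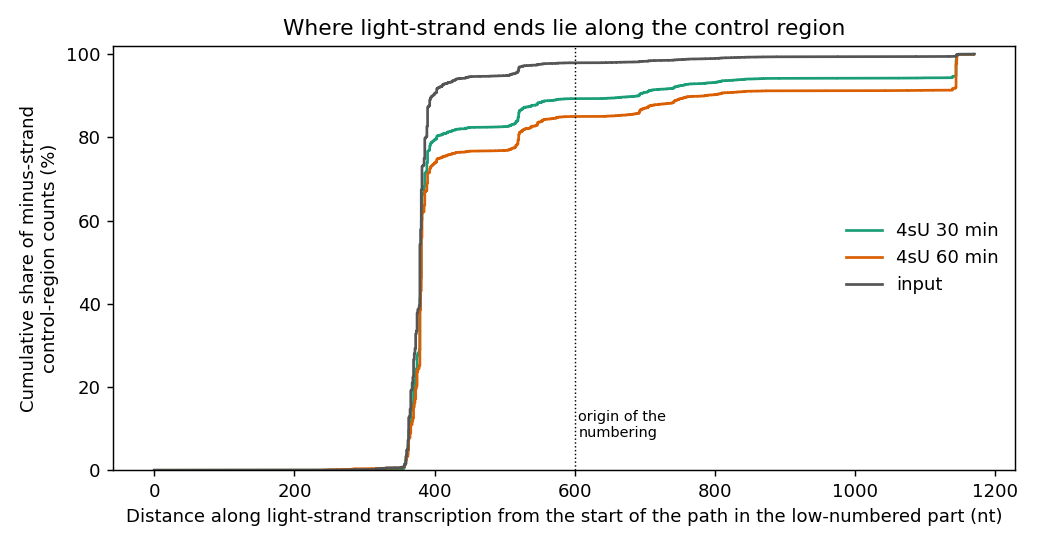
Cumulative share of minus-strand control-region counts (%, vertical axis) against the distance in nt along light-strand transcription from the highest position of the low-numbered part of the control region, for the 1 library of each group. All lines climb at the main zone, where the input gains 90.9% of its counts, and the captured libraries keep 10.65% (30 min) and 14.9% (60 min) for the stretch beyond the origin.

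On the plus strand, the high-numbered and the low-numbered part of the control region differed in their sums. Plus-strand RNA of the high-numbered part lies downstream of CYTB and the tRNA-Thr gene in heavy-strand transcription. The site at 16095 had 76227 counts at 30 min, 81227 at 60 min and 75586 for the input, and held most of the 98746, 92881 and 86649 counts of this strand in the control region. It was 2.52 times the input at 30 min (2.50 to 2.55) and 4.26 times at 60 min (4.22 to 4.31), and 1.69 times as high at 60 as at 30 min (1.67 to 1.71). As a share of chrM counts it was 1.69% at 30 min, 2.93% at 60 min and 2.86% in input. Its top position, 16095 in each library, took 19.8% of the site at 30 min, 22.0% at 60 min and 17.6% in input, and its standard deviation was 6.54, 6.58 and 7.25 nt. Its neighbours at 16035, 16070, 16127 and 16160 stayed within 1.31 times the input at 30 min. At 60 min the site at 16035 stood at 1.66 times the input (1.54 to 1.80) and 16070 at 1.60 times (1.35 to 1.90), while 16127 and 16160 stood at 1.19 and 1.20 times.

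The low-numbered part of the plus strand was rare in input and enriched in captured RNA. It held 13756 counts at 30 min, 6194 at 60 min and 3795 for the input, 9.06 times the input at 30 min (8.74 to 9.40) and 6.47 times at 60 min (6.22 to 6.74). Unlike the site at 16095, it was lower at 60 than at 30 min, at 0.714 times (0.693 to 0.736). The site at 151 had 5156, 2335 and 1259 counts and was 10.2 times the input at 30 min (9.63 to 10.9) and 7.36 times at 60 min (6.87 to 7.89). The site at 110 was 11.2 (10.2 to 12.3) and 7.42 times the input (6.69 to 8.23). The site at 80 on the plus strand fell to 0.491 times between 30 and 60 min (0.437 to 0.551), with 1249, 387 and 343 counts. The site at 299 had the highest ratio of all member sites, 17.6 times (12.4 to 25.8) and 24.9 times the input (17.5 to 36.5), but rested on 36 input counts. As a share of chrM counts the low-numbered part rose as well, 2.12 times at 30 min (2.05 to 2.20) and 1.55 times at 60 min (1.49 to 1.62).

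At both edges of the control region as bounded here, plus-strand counts differed between the 50 nt inside and the 50 nt outside. The last 50 nt of the low-numbered part, from 551 to 600, had 423, 212 and 222 counts, and the next 50 nt outside had 1049, 1365 and 2891. Before the high-numbered part, the 50 nt outside, from 15951 to 16000, had 509, 378 and 190 counts, and the 50 nt inside had 925, 943 and 2156.

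Over sites, 93 of the 411 member sites had a mean of at least 10 CPM over the libraries and were compared; they held 98.7%, 98.6% and 99.1% of the member counts in these libraries, in the order 30 min, 60 min, input. A site was called higher or lower at a ratio of at least 2-fold with an interval that excluded 1. At 30 min, 76 of the 93 were higher than in input, against 26.6% of all 9408 sites of the genome, and 1 was lower (site 284), against 28% of all sites. The filter on mean CPM lets a low site pass through the library in which it is high, so these counts describe the sites that passed and not all members. The other chrM sites moved the same way: of 282 plus-strand sites outside the control region, 88.3% were higher and 0% lower. The median ratio was 3.57 over the member sites, 4.24 over those heavy-strand sites and 0.925 over all sites.

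At 60 min, 75 of the 93 were higher than in input, against 20.6% of all sites and 87.9% of heavy-strand sites, and site 284 was again the one lower, against 32.9% of all sites. Median ratios were 3.94 for member sites, 4.63 for heavy-strand sites and 0.769 for all sites. With counts scaled to chrM the balance turned: of 203 member sites with a mean of at least 10 on that scale, 10 were higher and 60 lower in the 30 min library, and 17 higher and 71 lower in the 60 min library. On that scale the 30 min library was higher at 5.77% of all sites and lower at 73.7%; the 60 min library was higher at 4.93% and lower at 80.4%. At heavy-strand sites these shares were 13.3% and 15.2% for 30 min, then 17.3% and 12.7% for 60 min. Both comparisons share the input library.

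Of the 16 sites called neither at 30 min, 7 were minus-strand sites of the control region from 123 to 356, the main zone among them, and 4 were the neighbours of 16095 on the plus strand. The remaining 5 lay opposite ND3, ND4 and CYTB.

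**Figure D3:**
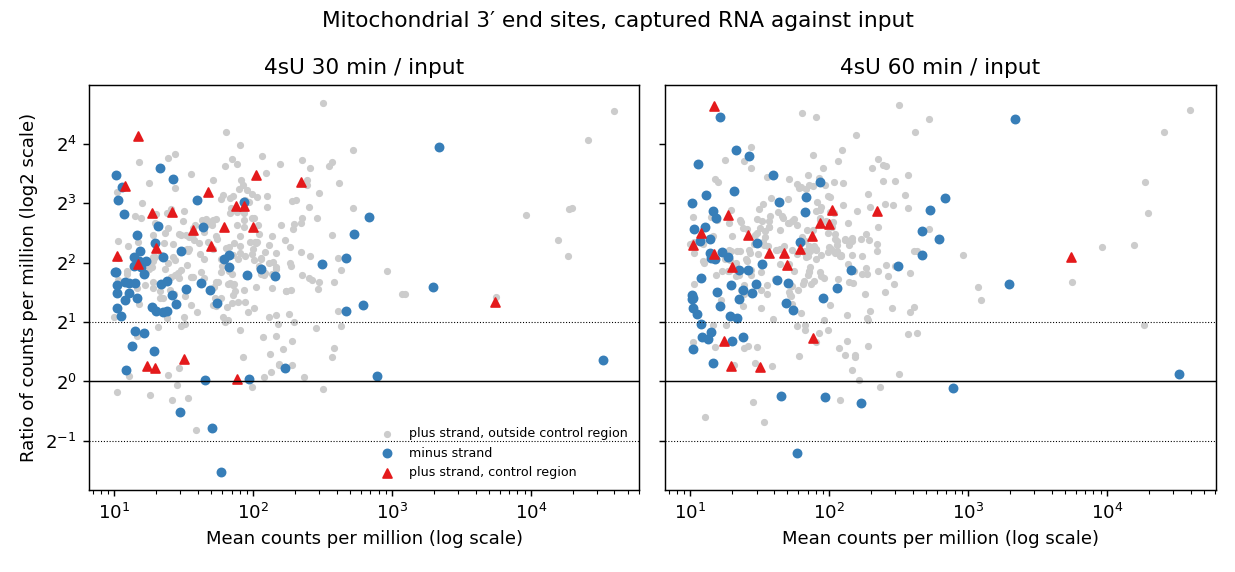
Ratio of CPM in captured RNA to input (log2 scale) against mean CPM over the libraries (log scale) for 93 member sites and 282 plus-strand sites outside the control region, at 30 min (left) and 60 min (right); each point is 1 site, the solid line is a ratio of 1 and dotted lines are 2-fold. The most abundant member site, the main zone, lies at 1.29 and 1.09, below nearly all other mitochondrial sites.

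At the light-strand genes TRNP and TRNE, minus-strand ends sat at the 5′ boundary and hardly at the 3′ boundary. Such an end is the 3′ end of the RNA that precedes the tRNA in the transcript. Within 10 nt of the 5′ boundary of TRNP there were 37684 minus-strand counts at 30 min, 33016 at 60 min and 5979 for the input, against 99, 83 and 253 at its 3′ boundary. At the 5′ boundary of TRNS1, the gene of a tRNA-Ser, there were 5886, 7086 and 6433 counts; its 3′ boundary had no count on either strand in any library and could not be read. At the junction of TRNY and TRNC, the genes of tRNA-Tyr and tRNA-Cys, there were 792, 1108 and 520 counts, with the top at 5828. At the 5′ boundary of TRNE, the gene of tRNA-Glu next to ND6, there were 460, 193 and 366 counts, against 1, 2 and 3 at its 3′ boundary. The plus strand held 93379, 69968 and 86875 counts in the same window at the 5′ boundary of TRNE, and the part of reads assigned to the opposite strand was not tested.

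These boundaries differed in how far captured RNA exceeded input. The ratios at 30 min were 15.8 at TRNP (15.3 to 16.2), 3.81 at TRNC (3.41 to 4.26), 3.14 at TRNE (2.73 to 3.62) and 2.29 at TRNS1 (2.21 to 2.37). At 60 min they were 21.9 (21.3 to 22.5), 8.45 (7.61 to 9.40), 2.09 (1.75 to 2.50) and 4.37 (4.22 to 4.52). TRNE was thus the only one of the 4 with fewer CPM at 60 than at 30 min, 0.666 times (0.560 to 0.789), while TRNC and TRNS1 were 2.22 and 1.91 times as high. The 5′ boundaries of TRNQ, TRNA, TRNN and TRNY had no count on either strand in any library, so whether ends occur there could not be read.

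**Figure D4:**
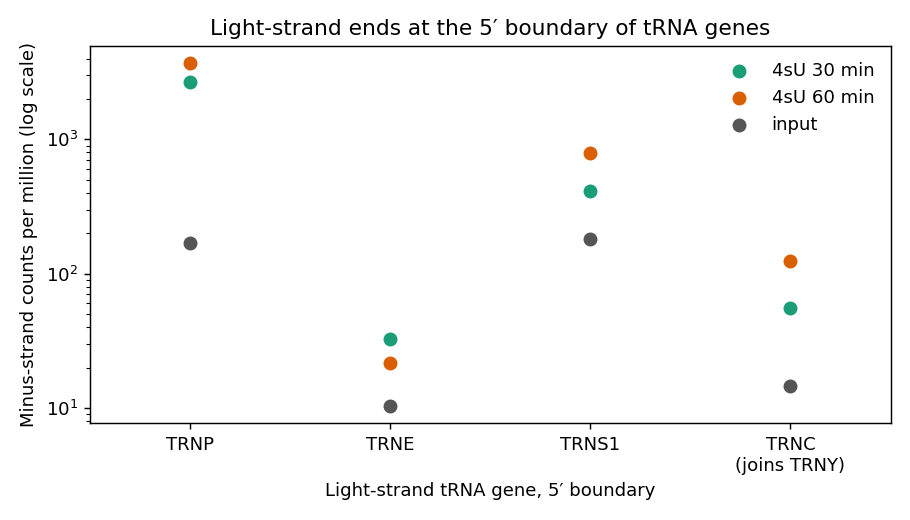
Minus-strand CPM (log scale) within 10 nt of the 5′ boundary of 4 light-strand tRNA genes, with 1 point for the 1 library of each group. TRNP spans 169 to 3699 CPM, with both captured libraries far above the input, and at TRNE the 30 min library is the highest, at 32.5 CPM.

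Opposite the heavy-strand genes, minus-strand ends were sparse, and their density varied along chrM. Stretches were bounded by the 8 abundant plus-strand ends, and the last 112 nt before the control region held 412, 328 and 528 minus-strand counts. Opposite RNR1 and RNR2, the ribosomal RNA genes, there were only 187 minus-strand counts at 30 min, 121 at 60 min and 66 for the input over 2633 nt, against 1004867, 646973 and 298123 on the plus strand. Per 1000 nt this was 5.02, 5.15 and 0.708 CPM. The densest stretch lay opposite CYTB, with 8512, 6112 and 4771 counts over 1142 nt, or 526, 599.6 and 118 CPM per 1000 nt. Counts in any library were present at 75.7% of minus-strand positions opposite CYTB but at 31.0% opposite ND1 and ND2, and at 28.1% opposite COX1, COX2, ATP8 and ATP6. The plus strand of these stretches was also less filled (89.8%, 55.2% and 38.2%), and the part of read mapping in the lower densities was not tested.

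All 8 stretches held more CPM in captured RNA than in input, by different amounts. At 30 min the minus strand opposite CYTB was 4.46 times the input (4.31 to 4.62), that opposite ND5 and over ND6 was 2.65 times (2.57 to 2.73), that opposite ND4L and ND4 was 2.51 times (2.40 to 2.62), and that opposite ND3 was lowest at 1.69 times (1.54 to 1.85). The value opposite the ribosomal RNAs, 7.09 times (5.32 to 9.53), rested on 66 input counts. The plus strand had the larger ratio in 8 of the 8 stretches at 30 min, for example 6.54 in the CYTB stretch and 13.8 in that of ND1 and ND2, where the minus strand was at 2.60 (2.53 to 2.68). At 60 min this order turned in the COX3 stretch, with 2.81 on the minus strand (2.61 to 3.02) and 2.14 on the plus strand. These plus-strand ratios include the abundant ends that bound the stretches. Without those ends the plus strand had the larger ratio in 7 of 8 stretches at both labelling times: in the COX3 stretch it was then 4.61 at 60 min (4.51 to 4.71), and opposite the minus-strand ratio of 7.09 in the ribosomal RNA stretch it was 2.42 at 30 min (2.40 to 2.43).

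In windows of 1000 nt in place of the stretches, the plus strand had the larger ratio in 12 of 16 windows at 30 min and in 11 at 60 min. The windows that turned at 30 min were 601 to 1600 (11.1 on the minus and 1.98 on the plus strand), 1601 to 2600 (13.1 and 2.30), 5601 to 6600 (4.454 and 4.396) and 14601 to 15600 (6.16 and 3.24). The first of these windows rested on 11 minus-strand counts in input and the next on 9.

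The minus strand took a smaller part of each of the 8 stretches in captured RNA than in input, except in the COX3 stretch at 60 min; opposite the ribosomal RNAs the intervals overlapped. By windows of 1000 nt its part was smaller in 12 of 16 at 30 min and in 11 of 16 at 60 min. In the window from 14601 to 15600 it was larger, at 4.398% at 30 min and 4.26% at 60 min against 2.36% in input. Over ND5 and ND6 it held 7.15% of the counts of both strands at 30 min (7.01 to 7.31), 6.23% at 60 min (6.07 to 6.39) and 7.96% in input (7.79 to 8.13). In the ND1 and ND2 stretch it held 1.62%, 2.91% and 8.06%, in the ND4L and ND4 stretch 0.869%, 0.613% and 2.14%, and in the CYTB stretch 2.07%, 2.35% and 3.0%. In the COX3 stretch it held 0.340% at 30 min, 0.812% at 60 min and 0.620% in input.

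**Figure D5:**
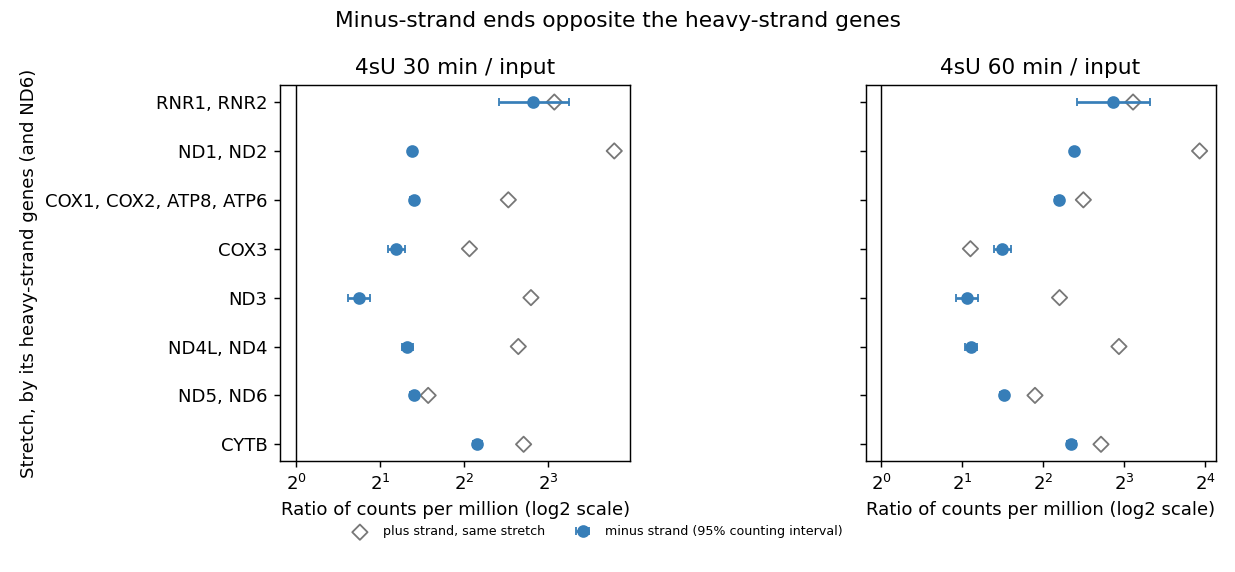
Ratio of CPM in captured RNA to input (log2 scale) on the minus strand (filled points, bars are 95% counting intervals) and on the plus strand (open diamonds) of 8 stretches named by their genes, at 30 min (left) and 60 min (right). Minus-strand points run from 1.69 (ND3) to 7.09 (ribosomal RNA genes) at 30 min and lie left of the diamonds, and at 60 min the COX3 diamond lies left of its point.

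Single sites dominated some of these stretches. Opposite ND1 and ND2, the site at 3250, which lies opposite the tRNA-Leu gene TRNL1, held 78.3% of the counts at 30 min, 84.7% at 60 min and 83.5% for the input. It had 7306, 9960 and 7474 counts, or 2.44 times (2.37 to 2.53) and 5.29 times the input (5.13 to 5.45). In the COX stretch, the site at 7516, at TRNS1, held 59.5%, 65.8% and 68.7%. Without these sites the ratios at 30 min became 3.40 (3.18 to 3.64) in the first stretch and 3.42 (3.26 to 3.59) in the COX stretch. Opposite CYTB, by contrast, the highest site (15148) held 18.2% at 30 min, 20.0% at 60 min and 9.91% in input, and was 8.17 (7.36 to 9.07) and 10.2 times the input (9.20 to 11.4). Among the other sites opposite CYTB, the ratio at 30 min ran from 1.51 at 15604 (1.26 to 1.80) to 12.2 at 15216 (9.56 to 15.7).

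At ND6, the site and the boundary described here held few ends. The wider window from 13601 to 14600 held 1350, 1211 and 1574 minus-strand counts, spread over many positions. The site at 14305, inside the gene, had 93 counts at 30 min, 367 at 60 min and 66 for the input. Within 10 nt of the low-numbered boundary of ND6, where its coding part ends, there were 17, 18 and 65 counts. The site at 12764, opposite ND5, was higher, with 984, 1027 and 563 counts, 4.37 times (3.94 to 4.86) and 7.24 times the input (6.52 to 8.03).

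Counts opposite the genes spread over many positions. The minus strand outside the control region held 43127, 38819 and 38531 counts at 4707, 3974 and 4809 positions. At a common depth of 38531 counts the expected numbers of positions were 4532.9, 3962.5 and 4809. The 10 highest positions held 29.7%, 42.1% and 34.6% of these counts, so the 60 min library was the most concentrated.

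Between the labelling times, 6 of the 93 member sites were at least 2-fold higher at 60 min, against 4.08% of all sites, and 2 were lower, against 11.7%. Of the heavy-strand sites, 1.77% were higher and 0.355% lower. The 6 higher sites were all on the minus strand, which held 72 of the 93 sites compared. They were 14305 in ND6, 6.26 times (4.97 to 7.95), the early sites 318 and 356, the site at 9908 opposite COX3, 3.13 times (2.51 to 3.93), the junction of TRNY and TRNC at 5828, 2.26 times (2.06 to 2.47), and 3250 opposite TRNL1, 2.16 times (2.10 to 2.23). The 2 lower sites were 9327 opposite COX3, with 338 counts at 30 min and 100 at 60 min or 0.469 times (0.372 to 0.588), and 80 on the plus strand. The median ratio was 1.04 over the member sites, 1.08 over heavy-strand sites and 0.860 over all sites.

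By category, the main zone stood at 0.842 times at 60 against 30 min and the rest of the minus strand at 1.23 times (1.22 to 1.24). Within that rest, the part outside the control region stood at 1.43 times (1.41 to 1.45) and the part beyond the origin to 1.27 times (1.26 to 1.29). On the plus strand of the control region, the high-numbered part summed to 1.62 times (1.60 to 1.63) and the low-numbered part to 0.714 times. The site at 16095, at 1.69 times, held most counts of the high-numbered part, and its other sites did not all rise. The sites at 16035 and 16070 stood at 1.62 and 1.33 times. Those at 16364, 16462, 16491 and 16552 fell to 0.802, 0.758, 0.777 and 0.768 times. The remaining high-numbered sites compared lay between 0.911 and 1.13 times, with intervals that included 1.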

How the data were processed

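The authors deposited, for each library, a table of raw counts of reads at single positions with strand, without normalization. The submitters' processing notes list cutadapt and Bowtie; no source used here gives their versions or settings, the genome build, or the treatment of reads that map to several places, such as nuclear copies of chrM. Per the labels' protocols, poly(A) RNA was cut by a light RNase T1 digestion between rounds of poly(A) selection, an anchored oligo(dT) primed the cDNA, and cDNA was selected by length and amplified; the captured libraries omitted the first selection. The protocol names no molecular identifiers.

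Tables were read with Python 3.11.15 and pandas 2.3.3. Counts summed over libraries were merged into sites within 24 nt of each local maximum, and counts were scaled to all counts of a library (CPM). Ratios carry exact Clopper-Pearson intervals (scipy 1.17.1) that treat both counts as Poisson and shares carry Wilson intervals. With 1 library per group no test across replicates exists. The calling was tested on Poisson counts simulated from the site means, and the merging on peaks set at known places. The simulated counts held no variation between replicate libraries, so they cannot show how calls would hold across replicates. Expected numbers of positions at a common depth follow the hypergeometric distribution. Named sites were the 20 with the highest share of chrM counts, the peaks of the rule, the highest minus-strand site of each stretch, and the 5 highest and lowest ratios of 30 min to input and of 60 to 30 min; other sites were named after their values were seen. The members, lists and settings were chosen with earlier results of these data known.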

Additional observations from a re-analysis of the deposited data

How the results depend on the processing

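Each group had 1 library, so no library could be left out and no replicate spread is known. No paired analysis was possible because each group has 1 library and no result comes from a test. The direction of several ratios rested on the scale. Scaled to chrM counts, the minus-strand ratio to input was 0.355 at 30 min and 0.341 at 60 min, without the main zone 0.734 and 0.928, and the control-region plus-strand ratio 0.668 and 1.02; 60 over 30 min gave 0.962, 1.26 and 1.53 for these. Of 203 member sites, those called were then 10 higher and 60 lower (30 min against input), 17 and 71 (60 min against input), and 11 and 8 (60 against 30 min). The last pair was 5.42% and 3.94% of them, against 5.39% and 15.8% of all sites. Scaled to nuclear counts, the same ratios were 2.06 and 1.91, 4.25 and 5.19, and 3.87 and 5.71, with 0.929, 1.22 and 1.48 between the labelling times, and 0 member sites were lower at 60 min than in input. Median-of-ratios scaling gave 42 higher and 3 lower of 81 at 30 min (51.9% and 3.7%, against 14.1% and 48.8% of all sites). Between the labelling times it gave 0 lower, where 7.94% of all sites were lower.

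Merging within 10 nt gave 2 lower sites at 30 min. Of 246 single positions, 159 were higher and 4 lower at 30 min (64.6% and 1.63%, against 24.5% and 35.3% of all positions). At 60 min 161 and 2 were (65.4% and 0.813%, against 21.6% and 35.1%). Between the labelling times 13 and 1 were (5.28% and 0.407%, against 5.75% and 6.3%). With no filter beyond 20 counts the same comparisons gave 174 and 3 of 257 sites, 151 and 2 of 252, and 13 and 12 of 233. A fold of 1.5 gave 2 lower at 30 min, and 13 higher and 7 lower between the labelling times. A fold of 4 gave 39 and 0, 46 and 0, and 3 and 0. For nuclear scaling, merging within 10 nt, the filter of 20 counts and the other folds, shares over all sites were not computed. Without the main zone, members were 6.13%, 8.32% and 8.64% of chrM counts. The ratios of the minus strand without the main zone on both other scales, the plus strand of stretches without the bounding ends and the stretch beyond the origin without its last site were chosen after seeing the data. The cause of these changes was not tested.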
